A study of Arabidopsis thaliana with 32 samples.

Results

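Endosperm of Arabidopsis thaliana seeds that had a Col mother and either a C24 or a Col father was compared. Endosperm and embryo had been separated by laser capture microdissection and sequenced as poly-A-selected RNA, from selfed and reciprocally crossed accessions and from CNS lines. CNS lines carry the nuclear genome of 1 accession in the cytoplasm of the other. The members were chosen by label: 2 Col x C24 and 2 Col x Col endosperm libraries, 4 of the 32 libraries of the series.

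The mother is named first in each cross. Col x C24 seeds had a Col mother and a C24 father, and Col x Col seeds were Col selfed. The mother's genotype, the seed coat and the cytoplasm were therefore Col in both groups, and only the paternal genome differed by label. Both accessions are unmodified inbred lines, Col being Col-0, and no transgene or treatment is given for either group. The labels give no seed age. Nothing in them ties a library to a plant, so the replicates may be technical and p-values cover only the spread among these libraries.

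Endosperm is the tissue that feeds the embryo and is formed when the central cell of the ovule is fertilised. It holds more maternal than paternal genome copies, and for imprinted genes it transcribes mainly the copy from the mother or mainly the copy from the father. A change of father alone therefore changes the minority genome of this tissue while everything maternal is held constant.

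Gene counts totalled 8.64 and 15.3 M in Col x C24 libraries, against 9.84 and 9.30 M in Col x Col libraries (M is 1e6). Levels are given as TMM-scaled counts per 1e6 (CPM). Reads that distinguish the accessions placed the parents as labelled: C24 reads made up 30.7% of nuclear allele reads in each Col x C24 library. Among organelle allele reads, the C24 share was 0.604% and 0.242% there, with exact 95% intervals of 0.243 to 1.24% and 0.0972 to 0.497%. The endosperm markers SUC5, a sucrose transporter, and FIS2, a Polycomb subunit, were present at 414 and 51.5 CPM in the first Col x C24 library, and at 505 and 46.8 CPM in the first Col x Col library. The early endosperm regulator AGL62 was at 0.495 and 0.395 CPM in Col x C24, against 0.219 and 1.05 CPM in Col x Col, and the endosperm growth kinase IKU2 had no read in any of the 4 libraries. The summed level of 13 tested endosperm markers was 1300 and 1320 CPM in Col x C24 and 1340 and 1420 CPM in Col x Col. Summed embryo markers stood at 403 and 429 CPM in Col x C24 against 454 and 469 CPM in Col x Col, and seed coat markers at 607 and 749 CPM in Col x C24 against 679 and 491 CPM in Col x Col. No marker of these lists was called by edgeR. At an unadjusted p under 0.05, 2 of 23 embryo markers were lower, and 1 endosperm marker and 1 seed coat marker were higher. DESeq2 called 1 embryo marker lower and no other marker. The median log2 difference of embryo markers was −2.47, with 14 of the 23 having both Col x C24 libraries below both Col x Col libraries; that of seed coat markers was 0.10 over 21. Of all 22439 tested genes, 16.5% lay below in this way, 19.0% lay above, and 35.5% had groups that did not overlap either way. The part of these other tissues in the results was not tested, and fewer cells of a type cannot be told apart from less RNA per cell.

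Few genes separated the crosses. Of 22439 genes tested with edgeR's quasi-likelihood test, 58 (0.258%) were called at a Benjamini-Hochberg adjusted p under 0.05. Of these, 50 (0.223% of the genes tested) were higher in Col x C24 and 8 (0.0357%) were lower. At an unadjusted p under 0.05, 823 genes were higher and 543 lower, and the median log2 difference over all tested genes was 0.0. Each library weighed on the count: it was 28 without Col x C24 replicate 1, 37 without Col x C24 replicate 2, 29 without Col x Col replicate 1 and 14 without Col x Col replicate 2. All 58 genes kept their direction in those 4 fits, and 11 stayed called in every one: SC35, XIE, AT1G11810, AT1G47950, AT1G63540, AT2G04622, AT2G07750, AT4G10700, AT5G15360, AT5G26345 and AT5G56920.

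**Figure D1:**
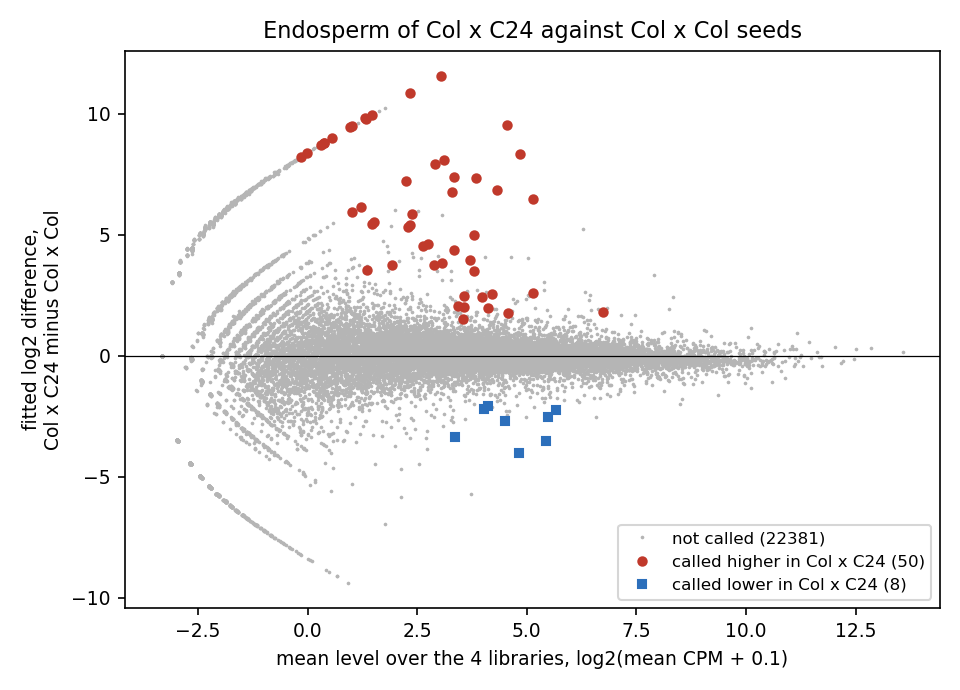
Each point is a gene; the x axis is its mean level over the 4 libraries as log2(mean CPM + 0.1), and the y axis is the fitted log2 difference, Col x C24 minus Col x Col. The 50 genes called higher (red circles) and the 8 called lower (blue squares) lie apart from a cloud of uncalled genes (grey) that centres on 0.

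The genes called higher were mostly silent or nearly silent in selfed Col endosperm. Their median level was 14.2 CPM in Col x C24, against 0.172 CPM in Col x Col. In Col x Col, 31 of the 50 were at or under 0.5 CPM and 13 had no read. Of all 22439 tested genes, 4140 were at or under 0.5 CPM there and 1684 had no read. All 50 had a higher mean in C24 x C24 endosperm than in Col x Col, and 46 had a higher mean there than in Col x C24. Among all tested genes, 11494 and 11111 did. The 50 were chosen for being lower in the same Col x Col libraries, so the counts that use Col x Col are in part set by that choice.

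SC35 encodes a serine/arginine-rich splicing factor and had the smallest p-value. It was at 43.9 and 34.9 CPM in Col x C24, against 0.328 and 0.351 CPM in Col x Col, a log2 difference of 6.84 ± 0.36 (SE, edgeR adjusted p = 5.8e-07). The groups were far apart, with hardly a read in selfed Col. SC35 overlaps AT5G64190 on the opposite strand, and no source used here states strand-aware counting, so reads of the pair cannot be told apart. In embryo its log2 difference between the same crosses was 8.64 ± 0.60 (edgeR adjusted p = 5.7e-06).

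XIE, a class XI myosin of the kind that moves organelles along actin, stood at 7.42 and 6.45 CPM in Col x C24, against 0.438 and 0.585 CPM in Col x Col (log2 difference 3.75 ± 0.37 (SE), edgeR adjusted p = 0.00036). VIM4 belongs to the VIM proteins, which bind methylated cytosine and help to maintain CG methylation. It had 17.7 and 20 CPM in Col x C24 against 5.25 and 4.09 CPM in Col x Col (2.01 ± 0.28, edgeR adjusted p = 0.0045). VIM4 was the only called gene among 17 tested for DNA methylation and demethylation. Its call was lost without Col x Col replicate 2, where the log2 difference was 1.84, and in a fit of the 4 libraries alone, where it was 2.00. Its neighbour and close paralog VIM2 was at 28.6 and 48.7 CPM in Col x C24 against 47.4 and 52.2 CPM in Col x Col (−0.36 ± 0.27, edgeR adjusted p = 0.94), and reads shared between such copies make each value uncertain.

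SADHU elements are short retroelement-derived sequences annotated as pseudogenes, and 2 were among the genes named by rule. SADHU3-2 had 7.05 and 12.9 CPM in Col x C24 against 0.219 and 0.117 CPM in Col x Col, a ratio of 64.1 with a counting interval of 21.7 to 313. SADHU1-3 had 14.7 and 12.6 CPM in Col x C24 against 1.42 and 0.585 CPM in Col x Col (log2 difference 3.74 ± 0.54, edgeR adjusted p = 0.0062). In both, the lower Col x C24 library lay above the higher Col x Col library, and both calls were lost without Col x Col replicate 2 (5.49 and 3.25). Over the 4 fits that left out a library, the log2 difference of SADHU1-3 lay between 3.25 and 4.53. In all, 9 of the 50 genes were pseudogenes (18.0%), and 3.28% of the genes tested were, a count made after the calls were seen and not tested.

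GLP6, a germin-like protein, had 28.2 and 11.9 CPM in Col x C24, against 0.219 CPM and no read in Col x Col, a ratio of 155 with a counting interval of 42.8 to 1290. P4H13, a prolyl 4-hydroxylase, had 27.1 and 11.0 CPM in Col x C24 against 1.31 and 0.468 CPM in Col x Col (log2 difference 4.38 ± 0.78, edgeR adjusted p = 0.031). CYP705A32, a cytochrome P450, had 20.7 and 28.1 CPM in Col x C24 against 3.06 CPM and no read in Col x Col (3.96 ± 0.70, edgeR adjusted p = 0.035). These 3 genes had at least 11.0 CPM in both Col x C24 libraries. HOL1, a methyltransferase that makes methyl halides, was lower, at 2.72 and 6.39 CPM in Col x C24 against 0.328 and 0.468 CPM in Col x Col (3.53 ± 0.66, edgeR adjusted p = 0.043). ACP5, an acyl carrier protein of fatty acid synthesis, was the most abundant of the named genes, with 142 and 191 CPM in Col x C24 against 42.8 and 51.6 CPM in Col x Col (1.82 ± 0.33, edgeR adjusted p = 0.038). RD2, a gene named for its response to desiccation, had 17.3 and 22.4 CPM in Col x C24 against 2.30 and 4.91 CPM in Col x Col (2.47 ± 0.37, edgeR adjusted p = 0.0076). For GLP6, P4H13, CYP705A32, HOL1, ACP5 and RD2 alike, the call was lost in at least 2 of the 4 fits that left out a library. The log2 difference of CYP705A32 was 12.2 without Col x Col replicate 1, with no read left in Col x Col, and 2.99 without Col x Col replicate 2; its call was kept in both fits and lost without either Col x C24 library (4.16 and 3.72). That of GLP6 was 11.9 without Col x Col replicate 1, again with no read left there, and 6.47 without Col x Col replicate 2. Over the same 4 fits P4H13 lay between 3.60 and 5.32, HOL1 between 2.76 and 3.99, and RD2 between 2.02 and 3.11. ACP5 overlaps AT5G27210 on the other strand.

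Genes with F-box products, which pick proteins for ubiquitination and form a large family, made up 5 of the 50 (10%) and 2.16% of the genes tested, again a count made after the calls were seen and not tested. AT4G10700 had 18.3 and 14.2 CPM in Col x C24 and no read in Col x Col, at least 95.7-fold higher against a floor of 3 reads over the Col x Col libraries. AT5G22600, an FBD and leucine-rich-repeat gene, had 69.9 and 51.5 CPM in Col x C24 against 11.2 and 9.24 CPM in Col x Col (log2 difference 2.57 ± 0.37, edgeR adjusted p = 0.0059). The histone deacetylase family member hda10 had 3.83 and 3.75 CPM in Col x C24 against no read and 0.117 CPM in Col x Col, a ratio of 66.9 with a counting interval of 11.7 to 2670. It lost its call in each of the 4 fits that left out a library, with log2 differences between 4.96 and 9.52; the highest was without Col x Col replicate 2, with no read left in Col x Col. The neighbouring genes AT1G63540 and AT1G63550 were both called: AT1G63540 had 84.5 and 30 CPM in Col x C24 against 0.328 CPM and no read in Col x Col, and AT1G63550 had 6.56 and 3.10 CPM in Col x C24 and no read in Col x Col.

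**Figure D2:**
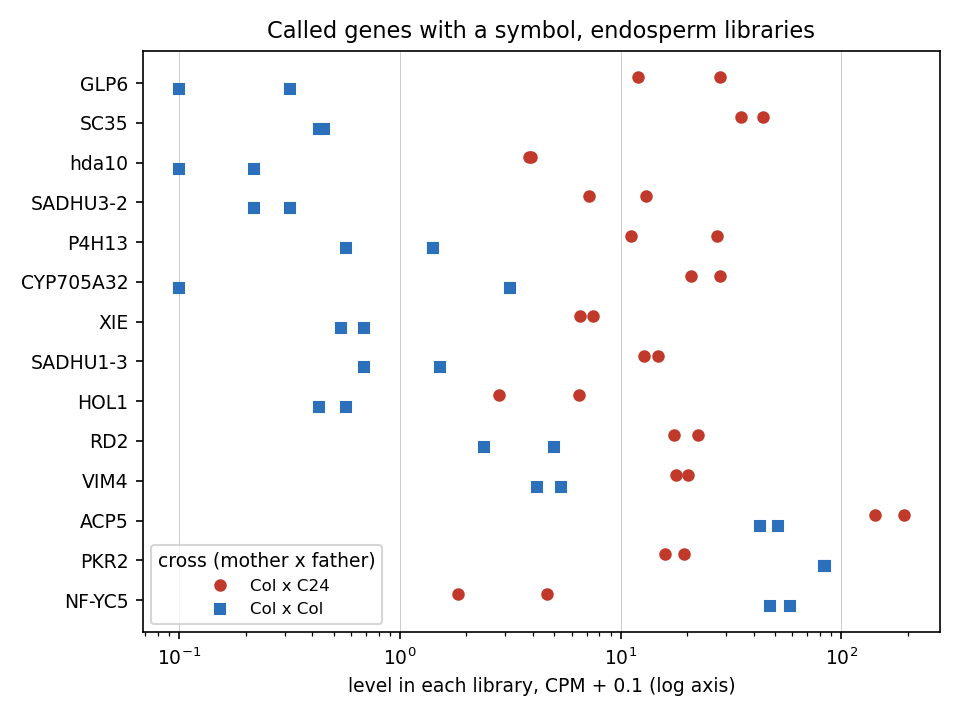
The x axis is the level in each library as CPM + 0.1 on a log axis, for the 14 called genes with a symbol named by rule, with Col x C24 libraries as red circles and Col x Col libraries as blue squares. The 12 genes at the top lay higher in both Col x C24 libraries than in both Col x Col libraries, and PKR2 and NF-YC5 lay lower.

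The 8 genes called lower followed a different pattern across crosses. Their median level was 6.29 CPM in Col x C24, against 46.1 CPM in Col x Col, with log2 differences between −2.07 and −4.01. The maternal Col genome was present in both groups, so the level was low although the mother supplied Col copies. All 8 were expressed in selfed Col endosperm at 16.8 CPM or more.

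NF-YC5 encodes a subunit of the NF-Y complex, which binds CCAAT boxes. Its level was 1.73 and 4.54 CPM in Col x C24, against 47.5 and 58.5 CPM in Col x Col (log2 difference −4.01 ± 0.58, edgeR adjusted p = 0.0062). PKR2, a CHD3-type chromatin remodeller related to PICKLE and known as a paternally expressed imprinted gene, was at 19.2 and 15.7 CPM in Col x C24, against 83.0 and 83.9 CPM in Col x Col (−2.26 ± 0.42, edgeR adjusted p = 0.040). Both genes were lower in each Col x C24 library than in either Col x Col library. The call of NF-YC5 was lost without Col x C24 replicate 1 (−3.54) and without Col x Col replicate 2 (−3.86). That of PKR2 was lost in each of the 4 fits that left out a library, where its log2 difference lay between −2.12 and −2.41.

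AT5G62110, a homeodomain-like protein gene, had 10.4 and 15.9 CPM in Col x C24 against 83.8 and 68.7 CPM in Col x Col (−2.52 ± 0.34, edgeR adjusted p = 0.0036). AT2G17305, annotated as an F-box and leucine-rich-repeat protein gene, had 3.83 and 9.68 CPM in Col x C24 against 63.7 and 97.0 CPM in Col x Col (−3.53 ± 0.58, edgeR adjusted p = 0.015). AT1G11810, with an F-box associated product, had 1.36 and 2.17 CPM in Col x C24 against 20.1 and 16.8 CPM in Col x Col (−3.36 ± 0.41, edgeR adjusted p = 0.0018). In each of these 3 genes the groups were separated by a wide gap. AT4G23120, which encodes a bromo-adjacent homology domain of the kind found in chromatin proteins, had 5.32 and 7.84 CPM in Col x C24 against 27.2 and 28.4 CPM in Col x Col (−2.07 ± 0.30, edgeR adjusted p = 0.0062). The transporter gene AT3G45690 had 6.31 and 5.40 CPM in Col x C24 against 22.2 and 30.9 CPM in Col x Col. The uncharacterised AT2G41650 had 5.81 and 6.19 CPM in Col x C24 against 29.5 and 49.0 CPM in Col x Col.

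Of the genes with a symbol that were not called, 3 had the next smallest p-values in the lower direction. UNG, a uracil DNA glycosylase of base repair, was at 0.495 and 1.12 CPM in Col x C24 against 4.16 and 8.77 CPM in Col x Col (edgeR adjusted p = 0.073). GMI1, a DNA-damage-induced gene, was at 10.9 and 7.84 CPM in Col x C24 against 39.7 and 20.9 CPM in Col x Col (edgeR adjusted p = 0.095). The transcription factor gene GATA13 had no read in Col x C24, against 2.19 and 3.74 CPM in Col x Col (edgeR adjusted p = 0.12). DESeq2 did call these 3 genes lower, with adjusted p of 0.00085 for UNG, 0.0044 for GMI1 and 0.0055 for GATA13, so their place outside the calls depends on the tool.

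The reverse exchange of fathers on a C24 mother used other libraries. There, 626 genes (2.79%) were called between C24 x Col and C24 x C24 endosperm, 612 (2.73%) higher and 14 (0.0624%) lower. All 8 genes called lower with a C24 father on Col were called higher with a Col father on C24, with a median log2 difference of 3.46. NF-YC5 had 60.6 and 58.6 CPM in C24 x Col against 0.135 and 0.0556 CPM in C24 x C24, and AT5G62110 had 165 and 88.9 CPM in C24 x Col against 6.55 and 6.34 CPM in C24 x C24. PKR2 had 44.3 and 36.0 CPM in C24 x Col against 6.21 and 12.2 CPM in C24 x C24 (2.11 ± 0.42, edgeR adjusted p = 0.012). Each of these genes was thus higher with a Col father than with a C24 father on both mothers in the 4 standard crosses.

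For the 50 genes called higher, few differences were called when a Col father replaced a C24 father on a C24 mother. The 50 were chosen for their difference on a Col mother, so a smaller one here is in part set by that choice. Of them, 1 was called lower in C24 x Col than in C24 x C24, which was XIE, at 17.3 and 15.5 CPM in C24 x Col against 39.0 and 30.8 CPM in C24 x C24 (−1.09 ± 0.27, edgeR adjusted p = 0.045). None of the 50 was called higher by edgeR or DESeq2, and 1 was higher at an unadjusted p under 0.05. DESeq2 called 5 of the 50 lower, and 10 were lower at an unadjusted p under 0.05 in edgeR. A negative difference was found in 39, with a median of −0.64 over the 50. Over all 22439 tested genes, 1981 were higher and 623 lower at an unadjusted p under 0.05, and DESeq2 called 105 lower. A negative difference was found in 11586 of them, with a median of −0.03. Whether the effect of a C24 rather than a Col father depended on the mother was tested as an interaction on the log2 scale. It called 171 genes (0.762%). Of the 50 genes, 29 were among them, and so were 2 of the 8 genes called lower. The interaction contains the Col x C24 against Col x Col difference that chose these genes, so both counts are a description.

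The CNS set repeated the exchange with other libraries, where mothers of Col nucleus were pollinated by Col(C24), which carries the C24 nucleus, or by C24(Col), which carries the Col nucleus. The hybrid libraries there had Col cytoplasm in 1 and C24 cytoplasm in the other, with organelle C24 shares of 0.0285% and 99.9%. The comparison called 117 genes (0.521%), 93 higher and 24 lower in the hybrids. A positive difference was found in 10408 of all 22439 tested genes. Of the 50 genes, 42 were called higher there and all 50 had a positive difference; of the 8, 7 were called lower.

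PKR2 was the exception among the 8. It was at 111 and 124 CPM in the CNS hybrids, against 54.9 and 112 CPM in selfed C24(Col) (0.49 ± 0.39, edgeR adjusted p = 0.70). SC35 was another, at 84.8 and 107 CPM in the CNS hybrids against 102 and 86.9 CPM in selfed C24(Col) (0.01 ± 0.23, edgeR adjusted p = 1.0). Selfed seeds of Col nucleus thus had almost no SC35 reads in the standard set and a high level in the CNS set. Allele reads of SC35 were few. The CNS hybrids had 6 Col and 0 C24 reads in the first library and 8 and 3 in the second. C24 x Col had 0 Col and 9 C24 reads in the first and 1 and 10 in the second, and the second Col x C24 library had 0 and 2. Whether the Col nucleus of the CNS line carries Col sequence at SC35 was not tested. A test of the difference between the sets, added after these values were seen, called 1 gene of 22439 (0.00446%), which was SC35 (6.82 ± 0.44, edgeR adjusted p = 7e-06). For PKR2 that difference was −2.75 ± 0.57 with an edgeR adjusted p of 0.88.

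**Figure D3:**
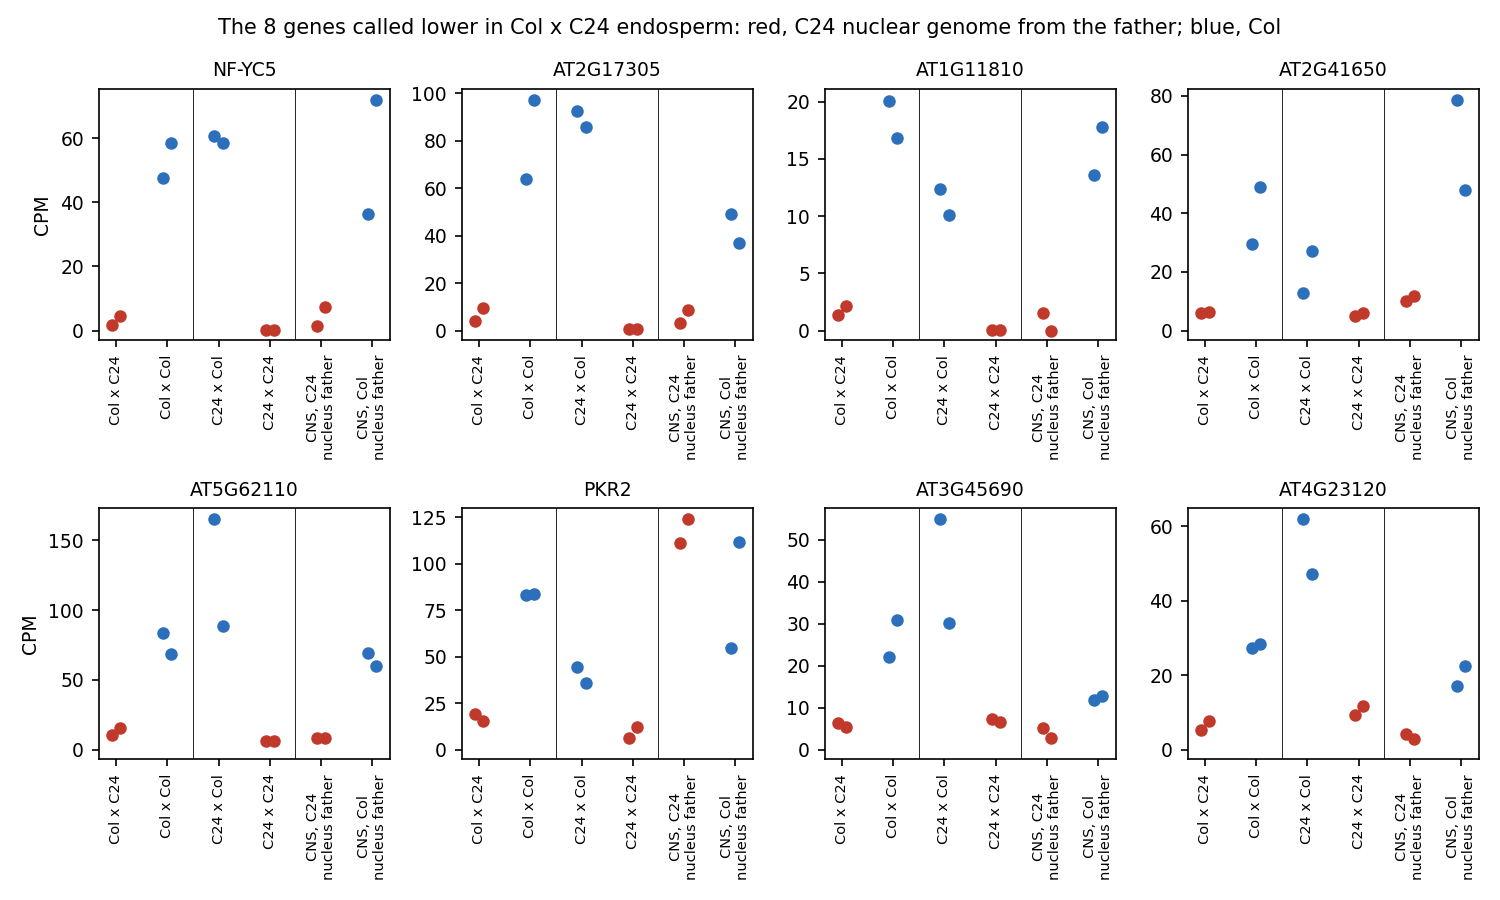
Each panel is 1 of the 8 genes called lower in Col x C24 endosperm, with CPM in each of 2 libraries per group; red marks a C24 nuclear genome from the father and blue a Col nuclear genome. Blue points lie above red points within each pair of groups for 7 genes, and PKR2 departs from this in the CNS pair.

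Allele reads show which parental copy was read. Of 8808 genes with at least 10 allele reads in both Col x C24 libraries, the median C24 share was 30.8%. Of the 50 genes called higher, 25 had enough reads, with a median C24 share of 94.8%; the share was over 50% in 24 of them and over 90% in 17. AT5G17700, a MATE efflux protein gene, was the exception with 13.8% (exact 95% interval 3.89 to 31.7%). For GLP6 the share was 95.7%, for CYP705A32 97.9%, for RD2 90.7% and for HOL1 83.2%. ACP5 had 55.0% C24 reads in Col x C24, although C24 gave the smaller part of the genome. The same libraries chose the genes, so these shares describe them and do not test them.

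**Figure D4:**
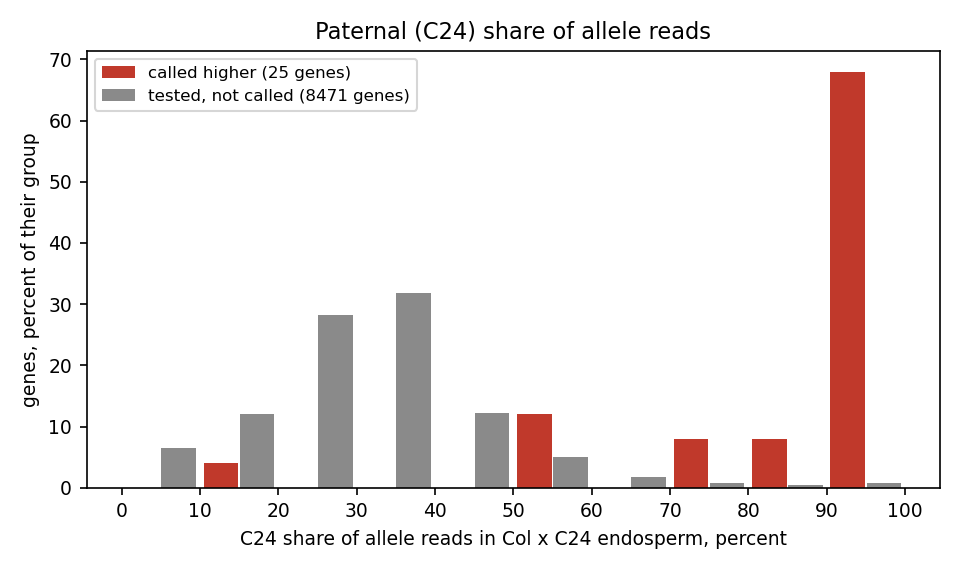
The x axis is the C24 share of allele reads in Col x C24 endosperm in bins of 10 points, and bars give the percent of the 25 genes called higher (red) and of 8471 tested genes that were not called (grey). Of the 25 genes, 68.0% lie in the top bin, against 0.744% of the genes not called.

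For the 8 genes called lower, 3 had enough allele reads in Col x C24, with a median C24 share of 37.6%. They were AT2G17305 at 22.6% (exact 95% interval 12.3 to 36.2%), AT2G41650 at 37.6% (29.6 to 46.1%) and PKR2 at 96.1% (90.4 to 98.9%). PKR2 had 4 Col and 27 C24 reads in the first Col x C24 library and 0 and 72 in the second, so its few reads were mostly paternal, and those of the other 2 genes were mostly maternal. The rest were thinner: NF-YC5 had 4 Col and 2 C24 reads in the first library and 29 and 17 in the second, and AT3G45690 had 16 and 7 in the first and 6 and 0 in the second. AT5G62110 had 0 Col and 6 C24 reads in the first and 5 and 35 in the second, and AT1G11810 had 4 and 0 in the first and 0 and 11 in the second. In C24 x Col endosperm, 7 of the 8 genes had enough reads and their median C24 share was 0.0%, with 6 under 10%. Reads of those 6 genes there came mainly from the father's Col copy. Of 9806 tested genes that were not called and had enough reads in C24 x Col, 129 were under 10% C24, and the median was 65.2%. In the CNS hybrids PKR2 had 0 Col reads in both libraries, beside 420 and 401 C24 reads.

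Of the imprinted genes on the 2 lists used here, 13 maternally and 10 paternally expressed, only PKR2 was called. Imprinted genes outside these lists were not looked for among the calls. Of 10 tested paternally expressed genes, 1 was called lower and none higher, with a median log2 difference of −0.38; at an unadjusted p under 0.05, 1 was higher and 3 lower. DESeq2 also called PKR2 alone. ADM, a DNAJ protein gene listed as AT4G11940, had 5.94 and 8.36 CPM in Col x C24 against 19.8 and 22.8 CPM in Col x Col (−1.57 ± 0.45, edgeR adjusted p = 0.36). VIM5, a close relative of VIM4, was at 72.9 and 79.9 CPM in Col x C24 against 89.3 and 76.5 CPM in Col x Col, with a C24 share of 97.4% in Col x C24. HDG3, a homeodomain regulator of endosperm development, was at 1110 and 1140 CPM in Col x C24 against 1430 and 1020 CPM in Col x Col. The groups overlapped for VIM5 and HDG3 and did not for ADM. YUC10, an enzyme of auxin synthesis, had a C24 share of 100%, and PHE1, a type I MADS factor, one of 93.3%. Of 7 listed genes with enough allele reads, 6 were over 50% C24; HDG3 was the lowest of these, at 59.7%. The other was MYB3R2, a MYB-family gene, at 3.65% in Col x C24. Its share was 99.4% with C24 as the mother, so its reads were mostly maternal in both hybrids.

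None of the 12 tested maternally expressed genes was called by edgeR, with a median log2 difference of −0.28; 1 was lower at an unadjusted p under 0.05. That gene was FWA, a homeodomain gene silenced by DNA methylation outside the endosperm, with 15 and 22.9 CPM in Col x C24 against 46.1 and 43.1 CPM in Col x Col (−1.23 ± 0.36, edgeR adjusted p = 0.37). In the CNS set the same exchange gave −2.15 for FWA (edgeR adjusted p = 0.013). FIS2 had a C24 share of 0.442% (exact 95% interval 0.0112 to 2.44%) and the F-box gene SDC one of 0.195%, so their reads came from the mother. The other 6 listed genes with enough reads had higher C24 shares. They were HDG8 21.9%, ALN 26.7%, HDG9 34.3%, Fh5 36.7%, NRPD1A 39.4% and MPC 91.7%, where the median gene had 30.8%. In C24 x Col the median gene had 65.1%. There HDG9 had 96.9%, mostly maternal, beside HDG8 58.4%, ALN 65.1%, Fh5 72.3% and NRPD1A 38.0%. MPC, a listed maternally expressed gene, was thus read mainly from the father's copy in Col x C24, and its share in C24 x Col was 100%, C24 there being the mother. FIS2 stood at 51.5 and 49.0 CPM in Col x C24 against 46.8 and 28.8 CPM in Col x Col.

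Type I MADS genes, transcription factors of early endosperm and targets of Polycomb, had a median log2 difference of −1.58 over 13 tested members. None was called by edgeR, 1 was higher and 2 lower at an unadjusted p under 0.05, and 8 had both Col x C24 libraries below both Col x Col libraries, as had 16.5% of all tested genes. PHE1 was at 36.0 and 105 CPM in Col x C24 against 125 and 202 CPM in Col x Col (−1.21 ± 0.77, edgeR adjusted p = 0.93), and AGL91 at 2.47 and 13.3 CPM in Col x C24 against 27.3 and 52.5 CPM in Col x Col (−2.30 ± 0.80, edgeR adjusted p = 0.54). Their replicates differed widely within each cross. AGL92 lay the other way, at 22.3 and 25.8 CPM in Col x C24 against 16.5 and 12 CPM in Col x Col (0.75 ± 0.32, edgeR adjusted p = 0.75). PHE1 and its neighbour PHE2 are near-identical, so reads may be split between them.

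Seed maturation genes had a median log2 difference of 0.49 over 23 tested, with 13 having both Col x C24 libraries above both Col x Col libraries, as had 19.0% of all tested genes. None was called by edgeR, DESeq2 called 1 higher, and 5 were higher and none lower at an unadjusted p under 0.05. KCS18, the fatty acid elongase FAE1, was at 25 and 7.64 CPM in Col x C24 against 0.547 CPM and no read in Col x Col (edgeR adjusted p = 0.095), and its C24 share was 41.9%. LEC2, a master regulator of seed maturation, was at 221 and 58.1 CPM in Col x C24 against 47.9 and 28.3 CPM in Col x Col (1.87 ± 0.55, edgeR adjusted p = 0.39). The groups did not overlap for either gene, although replicate 1 was the higher of each pair.

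Flowering repressors of the FLC list had a median log2 difference of 0.49 over 12 tested, and none was called by edgeR, with 4 higher and none lower at an unadjusted p under 0.05. FLC, the main repressor, was at 29.9 and 21.2 CPM in Col x C24 against 5.80 and 13.9 CPM in Col x Col (1.37 ± 0.58, edgeR adjusted p = 0.74), and its activator FRI at 15.7 and 16.0 CPM in Col x C24 against 9.63 and 5.38 CPM in Col x Col (1.08 ± 0.37, edgeR adjusted p = 0.52). Among 13 tested immune genes of the salicylic acid list, none was called by edgeR and 2 were higher at an unadjusted p under 0.05. SNC1, an immune receptor gene, was at 22.8 and 13.6 CPM in Col x C24 against 6.56 and 5.97 CPM in Col x Col (1.53 ± 0.40, edgeR adjusted p = 0.27). In transport, the amino acid permease AAP1 was at 167 and 197 CPM in Col x C24 against 374 and 298 CPM in Col x Col (−0.89 ± 0.22, edgeR adjusted p = 0.19). The groups did not overlap for these 4 genes, as for 35.5% of all tested genes.

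DESeq2 called no gene of the maternally expressed, type I MADS, FLC, salicylic acid, Polycomb, RNA-directed DNA methylation, cell cycle, auxin or heat stress lists. Polycomb repressive complex 2 had a median log2 difference of −0.06 over 10 genes, RNA-directed DNA methylation one of −0.10 over 20 and the cell cycle one of 0.0 over 31, with no call by edgeR. For auxin synthesis and transport it was −0.84 over 18, also with no call by edgeR and with 2 genes lower at an unadjusted p under 0.05. Heat stress genes had a median of 1.07 over 13, with no call by edgeR and none at an unadjusted p under 0.05. Their summed level was 1770 and 858 CPM in Col x C24 against 1240 and 353 CPM in Col x Col, so that replicate 1 was the higher library in both crosses. Of 65 tested defensin-like genes of the LCR and SCRL families, 1 was called, SCRL9, with 2.1 and 1.45 CPM in Col x C24 and no read in Col x Col, at least 10.5-fold higher against the floor of 3 reads.

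Embryos of the same crosses were compared in the same way, and 106 of 20235 genes (0.524%) were called there, 83 higher (0.41%) and 23 lower (0.114%). Of the 50 genes called higher in endosperm, 45 had a positive log2 difference in embryo and 24 were called there, with a median of 2.76. All 8 genes called lower had a negative difference in embryo and 2 were called. A test of whether the difference between fathers depended on the tissue called 7 of 20235 genes (0.0346%), none of them among the 58. At an unadjusted p under 0.05, 18 of the 58 were higher and 3 lower in that test, and DESeq2 called 5 higher and 1 lower. Over the 20010 genes tested in both fits, 715 were higher and 784 lower unadjusted, and DESeq2 called 26 higher and 36 lower. The tissue test contains the endosperm difference that chose the 58 genes, so their counts are a description. WNK2, a WNK-family kinase, was at 8.66 and 6.91 CPM in Col x C24 endosperm against 0.328 and 0.702 CPM in Col x Col endosperm, and its difference was larger there than in embryo by 3.44 ± 0.42 on the log2 scale (edgeR adjusted p = 0.014). DEL2, an atypical E2F repressor, was at 68.7 and 44.3 CPM in Col x C24 endosperm against 185 and 175 CPM in Col x Col endosperm, with an interaction of −2.08 ± 0.29 (edgeR adjusted p = 0.031).

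How far the paternal copy filled in for a silent maternal copy was described with genes that were on in only 1 selfed parent, at least 5 CPM in it and at most 0.5 CPM in the other. These limits were set after the data were seen, and no test was made. For 90 genes that were on in C24 only, the Col x C24 level was a median of 0.264 of the C24 x C24 level, with quartiles of 0.171 and 0.440 and replicate medians of 0.280 and 0.228. In C24 x Col, with C24 as mother, the median was 0.565. For 140 genes that were on in Col only, the median in Col x C24 was 0.625 of the Col x Col level, with quartiles of 0.394 and 0.810, and in C24 x Col it was 0.337. The median was thus larger where the parent that had the gene on was the mother. The mother gives more genome copies, the seed coat and the cytoplasm, and these cannot be told apart here. The genes were chosen on the same selfed levels that the hybrid levels are divided by, which can lower the ratios.

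Some genes departed from that order. Of the 140 Col-only genes, 10 were under 0.1 of the Col x Col level in Col x C24, and 3 of these reached at least 0.5 in C24 x Col: NF-YC5, AT1G11810 and the kinase gene MPK10. NF-YC5 was at 0.0592 of the Col level in Col x C24 and at 1.13 in C24 x Col. MPK10 was at 0.742 and 0.395 CPM in Col x C24 against 0.656 and 13.7 CPM in Col x Col, so its place rests on 1 Col x Col library. Among the C24-only genes, 2 of 90 were under 0.1 of the C24 x C24 level in C24 x Col, and both reached at least 0.5 in Col x C24. AT1G55525, a noncoding RNA gene, was at 0.584 in Col x C24 and at 0.0378 in C24 x Col, and AT5G35735, an auxin-responsive family gene, at 0.637 in Col x C24 and at 0.0504 in C24 x Col. AT1G55525 had 19.3 and 2.90 CPM in Col x C24 against 5.88 and 32.2 CPM in C24 x C24, so its replicates differ widely.

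**Figure D5:**
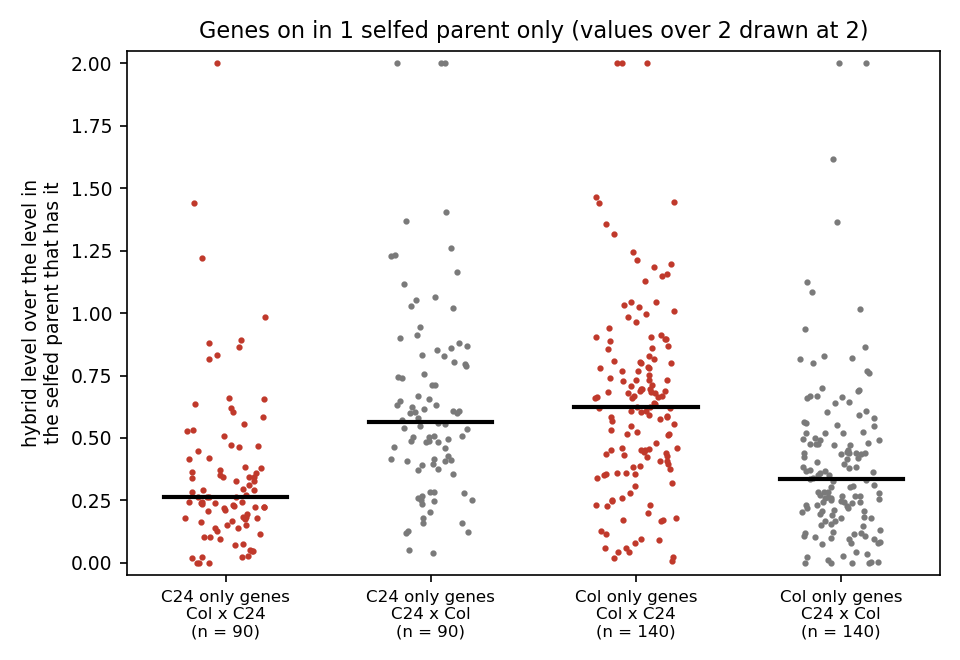
Each point is a gene that was on in 1 selfed parent only; the y axis is its hybrid level divided by the level in that parent, for Col x C24 (red) and C24 x Col (grey), with the median as a bar and values over 2 drawn at 2. Medians are 0.264 and 0.565 for the 90 C24-only genes, and 0.625 and 0.337 for the 140 Col-only genes.

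The start regions are shown of the 2 genes with symbols called lower in Col x C24 and of the methylation-reader gene called higher. Each is 250 bases before to 50 bases after the annotated start in the TAIR10.1 assembly, 5′ to 3′ on the gene's strand, with capitals on TATAAA and CCAAT, searched on both strands.
NF-YC5, chr5:20561179-20561478, minus strand: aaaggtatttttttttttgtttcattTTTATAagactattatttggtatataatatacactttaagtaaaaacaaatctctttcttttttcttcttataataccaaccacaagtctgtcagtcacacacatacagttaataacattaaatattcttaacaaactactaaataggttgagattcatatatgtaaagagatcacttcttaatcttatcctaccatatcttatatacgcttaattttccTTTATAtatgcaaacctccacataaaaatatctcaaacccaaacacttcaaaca
PKR2, chr4:15431100-15431399, plus strand: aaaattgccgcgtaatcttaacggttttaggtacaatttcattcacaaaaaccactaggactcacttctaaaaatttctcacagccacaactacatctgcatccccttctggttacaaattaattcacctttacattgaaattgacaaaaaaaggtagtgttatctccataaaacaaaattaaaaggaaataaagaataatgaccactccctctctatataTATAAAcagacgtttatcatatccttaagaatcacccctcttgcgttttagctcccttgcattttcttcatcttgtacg
VIM4, chr1:24586711-24587010, minus strand: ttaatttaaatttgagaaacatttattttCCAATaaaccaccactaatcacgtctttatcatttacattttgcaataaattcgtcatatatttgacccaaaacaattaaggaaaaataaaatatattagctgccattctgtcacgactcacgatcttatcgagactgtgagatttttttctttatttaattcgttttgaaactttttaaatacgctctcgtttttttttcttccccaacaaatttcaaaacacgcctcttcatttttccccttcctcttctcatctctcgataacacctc
NF-YC5 and PKR2 hold TATAAA, as do 51.0% of 22245 such regions of tested genes, and VIM4 holds CCAAT, as do 52.8%. Among the called genes, TATAAA occurred in 6 of the 8 that were lower and in 25 of the 50 that were higher, and CCAAT in 2 of the 8 and 23 of the 50. These windows are the Col reference sequence and say nothing about the C24 copy.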

How the data were processed

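Counts of reads per gene were deposited by the authors for each library, unnormalised, with 33602 genes per table. The submitters' processing notes name Trimmomatic, STAR, HTSeq, edgeR and TAIR10, with neither version nor role. RNA came from captured tissue through an RNAqueous Micro Kit and was poly-A-selected for NEB Ultra II libraries, per the labels' protocols. Allele counts per gene (reference, taken as Col, and other, taken as C24) were also deposited for hybrids. Strand use in counting, the allele-splitting step and seed age are not given in the sources used here. The 5 summary lines of each table were dropped before scaling and testing; those without a feature were 14.3% and 9.49% in Col x C24 and 11.2% and 12.4% in Col x Col. Of the genes, 32835 matched the reference gene table by locus.

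The model was edgeR 4.0.16 under R 4.3.3 (TMM, filterByExpr with a minimum count of 10, quasi-likelihood test, Benjamini-Hochberg), using all 16 endosperm libraries in 9 groups; 2 CNS hybrid libraries with different labelled genotypes were single-library groups that add no estimate of spread. The tissue interaction used the 16 standard libraries in 8 groups. DESeq2 1.42.0 was an alternative. The test was also run on simulated counts with known folds, where no changed gene was set to be silent in a cross. That run does not show how silent genes are called. Shares carry exact (Clopper-Pearson) 95% intervals; ratios against 1 to 3 reads carry 95% counting intervals, and floors are 3 reads over a group; all cover counting error only. Named genes were called genes with a symbol, a mean of at least 1 CPM and groups that do not overlap, up to 12 per direction, filled to 5 by p-value. Members and lists were chosen with earlier results of these data known.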

Additional observations from a re-analysis of the deposited data

Results flagged for a closer look

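On the log2 scale, the father effect differed between mothers for 4 genes with a symbol. These were the called ones with the smallest p-values in the edgeR test of that interaction. It was (Col x C24 minus Col x Col) minus (C24 x C24 minus C24 x Col). For SC35 the difference was 6.52 on the log2 scale (adjusted p = 3.3e-06). For LCR48, a defensin-like gene, it was 9.50 (adjusted p = 4e-06). LCR48 was at 1420 and 1180 CPM in Col x C24 against 2360 and 2620 CPM in Col x Col, and at 815 and 870 CPM in C24 x Col against 0.270 and 0.890 CPM in C24 x C24. For SADHU1-1 it was 8.51 (adjusted p = 8.3e-05), with 47.3 and 46.3 CPM in Col x C24 against 50.3 and 86.5 CPM in Col x Col, and 18 and 19.9 CPM in C24 x Col against no read and 0.0556 CPM in C24 x C24. For NIP1, annotated as an NEP-interacting protein, it was 4.97 (edgeR adjusted p = 0.00013). For LCR48 and SADHU1-1, a C24 father went with a lower level than a Col father on both mothers. Their log2 interaction was large where C24 x C24 had almost no reads, and differences on the CPM scale were not tested.

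The father effect differed between endosperm and embryo on a Col mother for WNK2, by 3.44 (edgeR adjusted p = 0.014), and for DEL2, by −2.08 (edgeR adjusted p = 0.031). Between the standard and the CNS set it differed for SC35, by 6.82 (edgeR adjusted p = 7e-06), in a test added after the values were seen.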

How the results depend on the processing

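The count of 58 genes became 170 with DESeq2 (72.9% of them higher, against 86.2%), 572 without the filter on low counts (60.5% higher), 156 with the replicate block (62.2% higher), 102 with the 8 standard endosperm libraries (74.5% higher), 25 with the 4 compared libraries alone (72.0% higher), and 14 to 37 when a library was left out. With library totals it was 61, with the uneven CNS hybrid as 1 group 55, with nuclear genes only 58, and 57 of the calls lay outside the 1 window of 500000 bases whose allele share departed by over 20 points (chromosome 2, 3500001 to 4000000, replicate 2 of Col x C24, 51.1% C24). For the exchange of fathers on C24, 626 became 1185 with DESeq2, 1440 without the filter, 1153 with the replicate block and 147 to 511 with a library left out. For the CNS exchange, 117 became 516, 1040, 628 and 46 to 596 under the same settings. The mother interaction went to 382, 734, 370 and 68 to 148 in place of 171. The tissue interaction went to 62 with DESeq2, 55 without the filter, 2 with library totals and 1 to 11 with a library left out, in place of 7, and to 9 with the replicate block. The cause was not tested; the filter and the subsets change which genes and samples enter. The C24 share of 30.7% was 30.7% with at least 30 allele reads. It was 30.5% from the median over genes in each library, 30.8% in replicate 1 and 30.3% in replicate 2. The median share of 30.8% given for 8808 genes pooled the reads of both libraries per gene. The labels do not say that same-numbered libraries share a batch, and with 2 numbers the correlation of their deviations between Col x C24 and Col x Col (0.348) does not establish pairing. For the 17 named genes, 155 of 204 values under 12 alternatives kept their side of the threshold, 41 fell short of it, 8 passed it and 0 changed direction. Those that passed were UNG and GMI1 with the replicate block (adjusted p = 0.035 and 0.011) and UNG, GMI1 and GATA13 with DESeq2 and without the filter. Depth limits the folds of the 13 higher genes with no read in Col x Col to lower bounds.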
